A study of Mus musculus with 20 samples.

Results

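The regions described here are the H3K27me3 regions of mouse embryonic fibroblasts without PML (KO) that touched no H3K27me3 region of wild-type (WT) fibroblasts by as much as 1 bp. Of the 12326 KO regions on chromosomes 1 to 19 and X, 2722 met that rule and are called KO-only regions. They were set beside the other 9604 KO regions, which touched a WT region, and beside 5330 of the 17661 WT regions, which touched no KO region (WT-only regions). The regions were chosen by the positions of H3K27me3 calls in both genotypes, so the number, length and H3K27me3 signal of the regions are descriptions. PML, H3K9me3, H3, H3.3, genes and RNA were not used to choose them.

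H3K27me3 is trimethylation of lysine 27 of histone H3. It is written by Polycomb repressive complex 2, whose catalytic subunits are Ezh2 and Ezh1, and it marks silent developmental genes, the inactive X chromosome and, in many differentiated cells, broad gene-poor stretches. H3K9me3 is the mark of constitutive heterochromatin, and in most tissues it lies largely in other places than H3K27me3. PML is the protein that builds PML nuclear bodies, where the chaperones DAXX and ATRX of the histone variant H3.3 are found.

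The KO cells came from Pml-null mice and the WT cells from wild-type mice, both of the C57BL/6 strain, and all were proliferating, untreated embryonic fibroblasts at passage 10 to 15. Cells for H3K27me3, H3K9me3 and PML chromatin immunoprecipitation and for RNA were not transfected, while cells for H3.3 carried a plasmid with Flag- or HA-tagged H3.3. Each target had 1 library per genotype, so nothing on chromatin below has a replicate, and a difference between genotypes cannot be told apart from a difference between libraries. RNA came as a table per genotype in which the authors had pooled 3 numbered replicates (numbered pair) and as 1 further sample per genotype (unnumbered pair).

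Several facts of the libraries touch these results. Pml RNA was 10.2 FPKM (fragment counts scaled by transcript length and sequencing depth) in KO and 15.0 FPKM in WT in the numbered pair, and 4.22 FPKM in KO and 7.62 FPKM in WT in the unnumbered pair. The fibroblast markers Col1a1, Col1a2, Col3a1, Vim and Fn1 ranged from 204 to 3354 FPKM over the 4 tables, but Thy1 was at 0.100 FPKM in KO and 0.141 FPKM in WT in the numbered pair, against 120 FPKM in KO and 210 FPKM in WT in the unnumbered pair. Pdgfrb ranged from 22.1 to 93.4 FPKM. S100a4 had 237 FPKM in KO and 2074 FPKM in WT in the numbered pair, and 505 FPKM in KO and 203 FPKM in WT in the unnumbered pair. The summed FPKM of the macrophage markers, of which 5 of 6 were in the tables, was 2.60 in KO and 58.6 in WT of the unnumbered pair, and 0.666 in KO and 0.341 in WT of the numbered pair. In the unnumbered pair Tyrobp was at 0 FPKM in KO and 18.1 FPKM in WT. The part of these cells in the RNA differences was not tested, and in such bulk samples fewer cells of a type and less RNA per cell cannot be told apart.

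Of the 2722 KO-only regions, 2659 held no start of a protein-coding gene. By the promoter starts of RefSeq, 65 of 17274 protein-coding genes began inside one. In the other KO regions 5763 began and in WT-only regions 515. These counts are not scaled to length, which was 26.3 Mb for KO-only regions, 1016 Mb for the other KO regions and 114 Mb for WT-only regions. Promoters of 7 of the 65 genes are shown. Among the genes that begin there, these had the up to 2 largest RNA differences in each direction past 2-fold in each pair of RNA tables. Each runs from 250 bases before to 50 bases after the start of transcription, 5′ to 3′ on the strand of the gene, from RefSeq's GRCm38.p6, the assembly of mm10, and CG dinucleotides are in capitals.
Medag promoter, chr5:149411499-149411798, + strand: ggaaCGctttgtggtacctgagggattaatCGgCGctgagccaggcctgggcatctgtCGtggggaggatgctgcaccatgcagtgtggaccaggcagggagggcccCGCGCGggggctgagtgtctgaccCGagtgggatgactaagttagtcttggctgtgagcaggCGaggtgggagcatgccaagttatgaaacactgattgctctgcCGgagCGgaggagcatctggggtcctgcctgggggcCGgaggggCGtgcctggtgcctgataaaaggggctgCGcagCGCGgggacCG
Sema7a promoter, chr9:57939862-57940161, + strand: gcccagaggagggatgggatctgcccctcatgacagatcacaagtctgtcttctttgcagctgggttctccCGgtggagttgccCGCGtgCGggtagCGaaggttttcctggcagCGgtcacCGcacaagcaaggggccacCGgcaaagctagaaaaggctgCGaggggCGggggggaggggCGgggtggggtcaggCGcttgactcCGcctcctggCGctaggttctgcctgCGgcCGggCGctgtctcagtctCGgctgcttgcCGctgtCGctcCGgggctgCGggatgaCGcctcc
Itga11 promoter, chr9:62677605-62677904, + strand: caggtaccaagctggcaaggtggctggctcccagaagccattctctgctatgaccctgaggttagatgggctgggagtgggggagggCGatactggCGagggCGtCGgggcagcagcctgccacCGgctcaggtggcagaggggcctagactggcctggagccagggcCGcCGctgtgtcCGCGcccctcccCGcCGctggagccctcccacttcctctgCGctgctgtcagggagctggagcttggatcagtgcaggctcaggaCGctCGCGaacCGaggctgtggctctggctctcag
Mapk12 promoter, chr15:89140654-89140953, - strand: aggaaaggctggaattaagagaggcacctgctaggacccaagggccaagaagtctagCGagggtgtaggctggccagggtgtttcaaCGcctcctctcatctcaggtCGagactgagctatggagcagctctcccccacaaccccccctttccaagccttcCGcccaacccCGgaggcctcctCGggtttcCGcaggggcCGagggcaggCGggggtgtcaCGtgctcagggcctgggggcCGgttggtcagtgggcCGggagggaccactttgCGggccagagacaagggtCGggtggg
Htr1b promoter, chr9:81633783-81634082, - strand: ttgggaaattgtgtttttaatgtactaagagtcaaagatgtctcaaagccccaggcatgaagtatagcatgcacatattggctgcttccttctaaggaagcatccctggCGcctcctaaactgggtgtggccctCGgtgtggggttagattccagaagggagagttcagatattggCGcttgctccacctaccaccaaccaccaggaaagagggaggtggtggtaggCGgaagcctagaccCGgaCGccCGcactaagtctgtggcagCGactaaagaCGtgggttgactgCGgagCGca
Zfp982 promoter, chr4:147500436-147500735, + strand: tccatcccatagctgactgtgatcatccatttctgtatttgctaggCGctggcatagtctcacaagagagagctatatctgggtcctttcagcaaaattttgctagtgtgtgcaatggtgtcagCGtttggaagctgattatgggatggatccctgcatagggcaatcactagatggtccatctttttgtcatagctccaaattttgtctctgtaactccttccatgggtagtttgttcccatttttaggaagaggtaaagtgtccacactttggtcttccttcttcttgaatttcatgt
Epha3 promoter, chr16:63864126-63864425, - strand: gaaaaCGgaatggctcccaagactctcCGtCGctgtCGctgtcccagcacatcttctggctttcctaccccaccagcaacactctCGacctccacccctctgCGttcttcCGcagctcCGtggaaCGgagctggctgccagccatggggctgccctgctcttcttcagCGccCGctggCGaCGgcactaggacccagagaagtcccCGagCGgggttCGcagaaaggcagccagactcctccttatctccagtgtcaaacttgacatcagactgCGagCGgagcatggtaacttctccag

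The printed promoters ranged widely in CG content. Sema7a had 23 CG dinucleotides, Epha3 18, Medag 17, Itga11 16, Mapk12 14, Htr1b 11 and Zfp982 2. A promoter was called CG-rich when its ratio of observed to expected CG was at least 0.6 and its G and C content at least 50%, which was true of Sema7a, Epha3 and Medag. Among the 71 promoters with a start in KO-only regions 39.4% were CG-rich (95% Wilson interval 28.9 to 51.1), against 26.04% of 6705 promoters in KO regions that touched WT regions, 28.7% of 620 in WT-only regions and 45.6% of all 21045 promoters. The interval of the KO-only promoters lay above the share in the other KO regions and held that of all promoters. It counts each promoter as separate, although the 71 belong to 65 genes. Adgrl3, Fhdc1 and P2ry2 each gave more than 1 CG-rich promoter, so the interval is too narrow and the gap to the other KO regions is not settled. CG content counts letters, and nothing on Polycomb binding is drawn from it.

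The KO-only regions were short. Together they covered 26.3 Mb, against 1016 Mb for the other KO regions and 114 Mb for the WT-only regions. Their median length was 7 kb (quartiles 5 and 10 kb), against 25 kb (9 and 85 kb) for the other KO regions and 12 kb (7 and 24 kb) for the WT-only regions. Of the KO-only regions 77.7% were at most 10 kb long and 35, or 1.29%, were over 50 kb. Long regions meet other regions more easily, so a short median is in part built into the rule.

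The signal, the authors' own value per region, had a median of 4.74 in KO-only regions (quartiles 1.89 and 8.67), 7.14 in the other KO regions and 6.00 in WT-only regions. In KO-only regions it fell with length, with medians of 10.3 at 1 to 4 kb, 4.25 at 5 to 10 kb, 1.79 at 11 to 25 kb, 1.23 at 26 to 50 kb and 0.867 over 50 kb. In the other KO regions it was 10.5 at 1 to 4 kb, 7.67 at 5 to 10 kb, 4.76 at 11 to 25 kb, 5 at 26 to 50 kb and 9.45 over 50 kb. The medians of both sets were close at 1 to 4 kb alone, and KO-only regions were lower in each longer class. A signal under 1 was found in 359 KO-only regions, 13.2%, against 8.44% of the other KO regions and 6.02% of the WT-only regions.

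**Figure D1:**
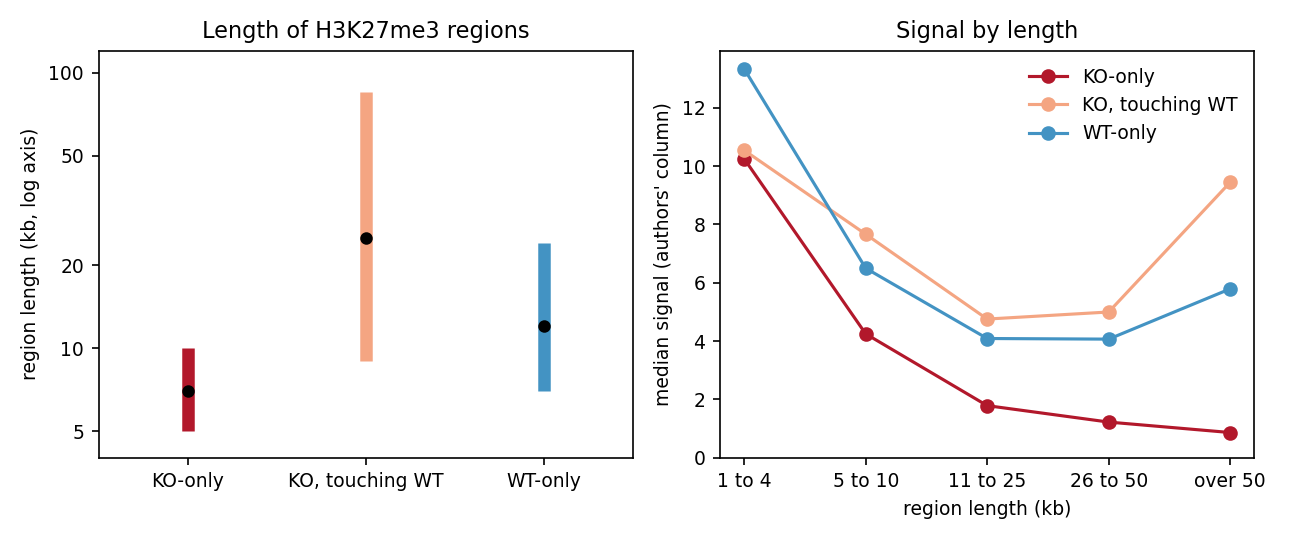
Left, length of KO-only regions, of KO regions that touched WT regions and of WT-only regions in kb on a log axis, with the median as a point and the quartiles as a bar. Right, median signal by length class, where the KO-only regions start at 10.3 for 1 to 4 kb and end at 0.867 over 50 kb.

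Most KO-only regions lay well away from WT H3K27me3. The gap to the nearest WT region had a median of 54 kb (quartiles 27 and 116 kb, range 2 to 2349 kb). It was at most 10 kb in 140 regions, 5.14%, and at least 100 kb in 809, 29.7%. WT-only regions lay about as far from the nearest KO region, with a median of 55 kb, 5.82% at most 10 kb away and 29.8% at least 100 kb away. The distance is thus not particular to KO-only regions. At the edge of the rule, the nearest KO-only region lay 2 kb from a WT region, was 6 kb long and had a signal of 9.96, while 20 KO regions just outside the rule overlapped a WT region by 1 kb. For 44.6% of the KO-only regions the nearest other KO region was also KO-only, at a median gap to any other KO region of 35 kb. KO-only regions made up 2722 of the 12326 KO regions, a smaller share, so they lay partly in groups.

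Chromosomes differed in how many of their KO regions were KO-only. The share was 25.2% on chromosomes 1 to 9 (2167 of 8614, with single chromosomes between 21.5% and 28.2%) and 15.1% on chromosomes 10 to 19 (555 of 3686, between 9.39% and 20.6%). The signal times the length in kb was a whole number in 100% of KO regions on chromosomes 1 to 9 and X and in 9.12% on chromosomes 10 to 19, so the authors' values were made differently for these sets of chromosomes and the difference cannot be told apart from that. On X none of 26 KO regions was KO-only. There the KO regions were very long, with a median of 3.57 Mb and 98.9% of X covered, while the 876 WT regions had a median of 0.023 Mb and covered 77.4%.

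KO-only regions lay in PML regions more often than the other H3K27me3 regions did. The WT PML list held 484 broad regions and covered 20.0% of the analysed genome. It touched 826 KO-only regions, 30.3% (95% Wilson interval 28.6 to 32.1), against 11.7% (11.1 to 12.4) of the other KO regions and 9.40% (8.65 to 10.2) of WT-only regions. Of the 826 regions, 818 lay wholly inside. By length, 35.7% of the KO-only regions was in PML regions, against 26.4% of the other KO regions and 6.13% of the WT-only regions. These intervals cover counting error alone and count each region as separate, although neighbours are not.

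KO-only regions had the highest share within each length class. Among regions of 5 to 10 kb, 30.0% of KO-only regions had their midpoint in a PML region, against 8.21% of the other KO regions and 15.2% of WT-only regions, so these sets stood in the opposite order there. Per Mb of genome there were 1.60 KO-only regions inside PML regions and 0.923 outside them, while the other KO regions were at 2.08 per Mb inside and 4.14 per Mb outside and the WT-only regions at 0.962 inside and 2.35 outside. Counting KO regions with under 50% of their length covered by WT regions, in place of none, brought the share of length in PML regions to 59.0%. KO-only regions were denser inside PML regions than outside, and both other sets were less dense there. The KO list of PML ChIP, in cells without the protein, touched 26 KO-only regions, 0.955%.

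A few PML regions held many of the KO-only regions. Of the 484 PML regions 174, or 36.0%, held at least 1. The PML region at chr1:98250001-105420000 (mm10), which holds the neuronal adhesion genes Cntnap5b and Cdh20, had 40. The one at chr2:85590001-90380000, with 216 protein-coding genes, many of them olfactory receptors, had 35. Next came chr1:112320001-118280000 with Cntnap5a and 25 regions, chr8:95900001-101520000 with the cadherin Cdh8 and 24, and chr7:52700001-55020000 with Luzp2 and 21. KO-only regions that touched PML regions had a median signal of 3.50 and a median length of 8 kb, against 5.22 and 7 kb for those outside.

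In WT cells most of these places carried H3K9me3 calls. Of the KO-only regions 2004, 73.6% (71.9 to 75.2), touched a WT H3K9me3 region, and 594, 21.8% (20.3 to 23.4), touched a KO H3K9me3 region. Of the other KO regions, which are longer, 71.5% (70.6 to 72.4) touched a WT H3K9me3 region, nearly the same share, and 54.7% a KO one. By length, H3K9me3 covered 25.3% of the KO-only regions in KO and 70.0% in WT. The same shares were 54.2% in KO and 51.5% in WT for the other KO regions, 19.9% in KO and 31.7% in WT for WT-only regions, and 28.6% in KO and 32.7% in WT for the analysed genome. By length, KO-only regions thus had less H3K9me3 in KO and more in WT than the other KO regions. The lower share in KO depended on the rule: over the 3724 KO regions with under 50% of their length covered by WT regions, H3K9me3 covered 53.4% in KO and 68.5% in WT.

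**Figure D2:**
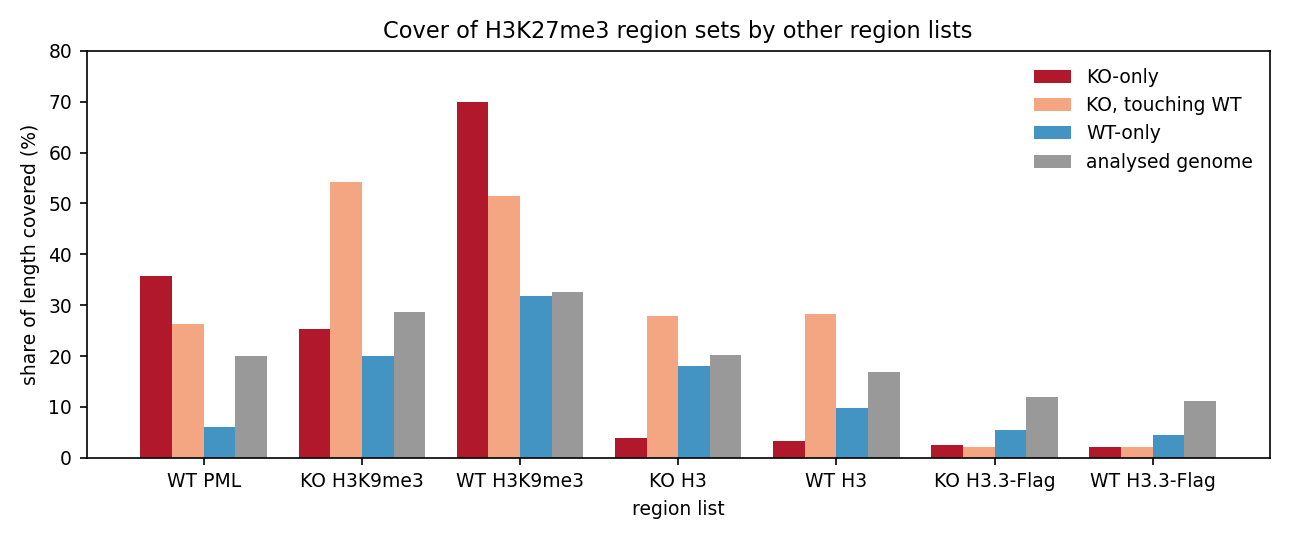
Share of the length of each H3K27me3 region set, and of the analysed genome, that is covered by other region lists, in percent, with 1 library per list. The KO-only regions are covered to 35.7% by WT PML, to 25.3% by KO H3K9me3 and to 70.0% by WT H3K9me3.

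Region by region, 1495 of the 2722 KO-only regions, 54.9% (53.0 to 56.8), touched H3K9me3 in WT alone and 85, 3.12% (2.53 to 3.85), in KO alone. In both genotypes H3K9me3 touched 509, and in neither 633. Of the KO-only regions with WT H3K9me3, 74.6% (72.6 to 76.5) had none in KO, against 33.8% (32.7 to 35.0) for the other KO regions and 50.3% (48.2 to 52.3) for WT-only regions. The KO list held almost no calls of a signal under 3 by length, unlike the WT list. Whether faint H3K9me3 in KO went unlisted was not tested. With a signal of at least 3 in both lists, the shares were 72.1% for KO-only regions, 33.1% for the other KO regions and 49.5% for WT-only regions. Within 5 to 10 kb, KO H3K9me3 touched 18.02% of KO-only regions and 32.6% of the other KO regions, and WT H3K9me3 touched 75.9% of KO-only regions and 65.0% of the other KO regions.

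How large the difference was depended on the faint WT calls. The H3K9me3 regions that touched KO-only regions had a median signal of 9.79 in KO and 3.11 in WT. With H3K9me3 regions of a signal of at least 3, the covered share of KO-only regions was 24.9% in KO and 32.3% in WT, and with at least 5 it was 21.5% in KO and 20.1% in WT, so the order of the genotypes turned. The other KO regions were at 54.1% in KO and 17.9% in WT with at least 3. Of the analysed genome, KO H3K9me3 covered 28.5% with at least 3 and 23.6% with at least 5. WT H3K9me3 covered 11.9% and 6.23% of it. With all calls the genome was at 28.6% in KO and 32.7% in WT, so the order of the genotypes turned there too. At both minima KO-only regions were below the genome in KO and above it in WT. When the 300 Mb of highest signal was kept in each library, the KO-only regions were at 15.1% in KO and 31.0% in WT, and the other KO regions at 20.9% in KO and 17.4% in WT. The analysed genome was then at 11.6% in each genotype, below the KO-only regions in both. In every one of these settings KO-only regions had less KO H3K9me3 and more WT H3K9me3 by length than the other KO regions. Counted by regions touched, WT H3K9me3 was less frequent in KO-only regions than in the other, longer KO regions. At a signal of at least 3 it touched 38.5% of KO-only regions and 43.1% of the other KO regions. At least 5 gave 26.4% and 29.8%, and the strongest 300 Mb gave 37.8% and 42.6%.

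**Figure D3:**
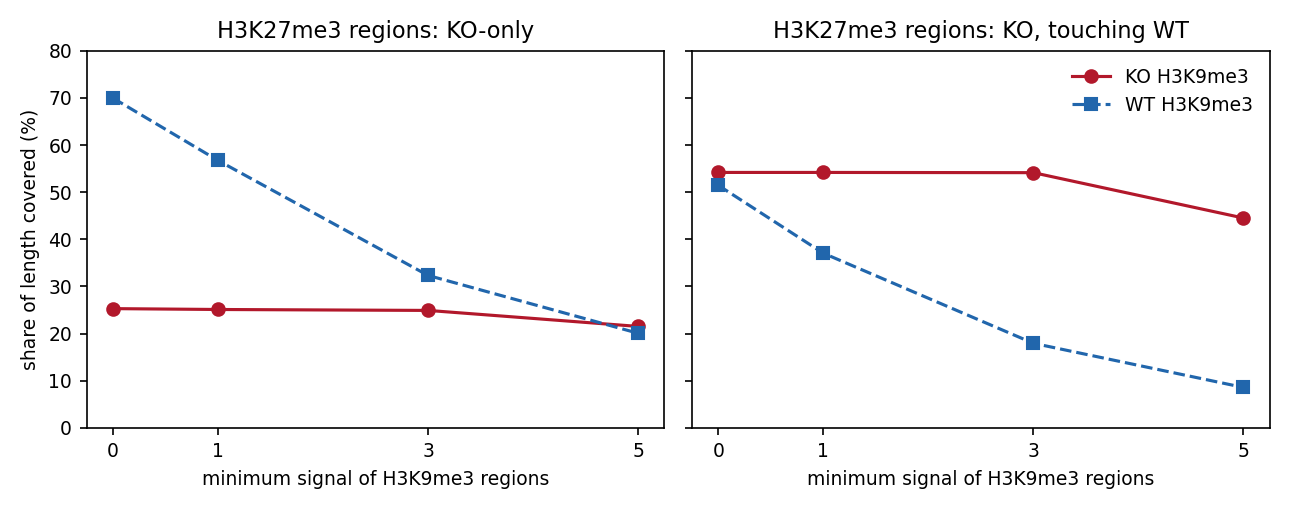
Share of the length of KO-only regions (left) and of the other KO regions (right) covered by H3K9me3 of KO and WT, in percent, against the lowest signal a H3K9me3 region had to have. The KO and WT lines of the KO-only regions cross between 3 and 5, where WT goes below KO.

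With all H3K9me3 calls counted, cover was higher in PML regions for both genotypes. KO-only regions that touched a PML region were covered to 31.4% in KO and 79.6% in WT, and those outside to 21.8% in KO and 64.4% in WT. With a signal of at least 3, the shares inside were 30.4% in KO and 25.9% in WT, and those outside 21.8% in KO and 36.0% in WT. The lower H3K9me3 in KO was therefore seen outside PML regions at both settings, and inside them only when faint WT calls counted. On chromosomes 1 to 9 H3K9me3 covered 23.0% in KO and 76.2% in WT, and on chromosomes 10 to 19 it covered 32.6% in KO and 50.3% in WT.

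Histone H3 calls were fewer in KO-only regions than in the other KO regions, and the cover by H3.3-Flag differed little between these sets by length. H3 calls touched 4.26% of them in KO and 2.76% in WT, against 26.1% in KO and 19.1% in WT of the other KO regions. H3.3-Flag touched 5.40% in KO and 5.36% in WT, against 24.4% in KO and 29.1% in WT of the other KO regions, which are longer. By length H3.3-Flag covered 2.45% in KO and 2.19% in WT of KO-only regions, and 2.21% in KO and 2.195% in WT of the other KO regions. H3.3-HA covered 6.32% in KO and 1.44% in WT of KO-only regions, against 17.99% in KO and 0.407% in WT of the other KO regions. By length H3 covered 3.84% in KO and 3.22% in WT of KO-only regions, against 27.9% in KO and 28.3% in WT of the other KO regions. Of the analysed genome, H3 covered 20.2% in KO and 16.9% in WT, and H3.3-Flag 11.9% in KO and 11.1% in WT. H3.3-HA covered 14.6% of it in KO and 2.86% in WT, so its higher cover in KO was seen in the genome too. Each of these lists covered less of the KO-only regions than of the genome.

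Most of the longest KO-only regions were faint. The longest, chr10:45897001-46282000, spanned 385 kb with a signal of 2.62. It lay to 94.0% in a PML region, held no protein-coding gene and was covered by H3K9me3 to 35.6% in KO and 1.82% in WT. The next, chr13:67991001-68226000, was 235 kb with a signal of 3.49 and lay wholly in PML and in H3K9me3 of both genotypes. The region at chr14:52713001-52820000, 107 kb long, lay in the T-cell receptor alpha locus, whose variable segments include Trav6d-3 and Trav7d-3. The region at chr4:68952001-69083000, 131 kb long, covered part of Brinp1, a brain gene, with H3K9me3 over 100% in KO and 49.6% in WT. Of the 10 longest regions 9 had a signal under 3, and chr4:145900001-146050000 was listed with a signal of 0.

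The regions of highest signal were short. The highest, 124 over 4 kb, was at chr18:12158001-12162000, with no protein-coding gene. A 1 kb region with a signal of 65 lay in Rest, the repressor of neuronal genes, at chr5:77268001-77269000, only 3 kb from a WT region and inside H3 calls of both genotypes. A 2 kb region with a signal of 59.5 covered most of Rrs1, a ribosome assembly factor, at chr1:9545001-9547000. Of the 10 regions of highest signal 5 lay in H3 calls of at least 1 genotype, while 2585 of the 2722 KO-only regions touched no H3 call of either.

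Genes were fewer in KO-only regions than elsewhere. A protein-coding gene was touched by 752 of them, 27.6% (25.98 to 29.3), against 51.6% of the other KO regions and 36.3% of WT-only regions, and 21.0% of their length lay in genes, against 40.0% of the analysed genome. They touched 548 protein-coding genes, whose median length was 152 kb, against 17.3 kb for all protein-coding genes, and 114 of these genes were touched by 2 or more. Sgcz, a sarcoglycan, held 11 regions. Prkg1, the cGMP-dependent kinase, held 8, and Lrp1b, a lipoprotein receptor relative, and Adamtsl1 held 7 each. Sgcz was at 0 FPKM in all 4 tables, while Adamtsl1 was at 10.2 FPKM in KO and 11.4 FPKM in WT of the unnumbered pair and at 0.225 FPKM in KO and 0.172 FPKM in WT of the numbered pair.

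By family, neuronal adhesion genes were touched most often. KO-only regions touched 15 of 53 genes of the cadherin, contactin and neuroligin kind (28.3%), among them Cntnap5a, Cdh8 and Nlgn1, against 2.53% of all protein-coding genes. These are long genes. Ion channels and transmitter receptors followed with 15 of 193 (7.77%), and Zfp zinc finger genes with 17 of 397 (4.28%). Olfactory receptors were at 16 of 1110 (1.44%), below the share of all genes by any overlap, and clustered protocadherins at 0 of 57. Any overlap is met more easily by long genes. With at least 50% of the length or a start in KO-only regions, olfactory receptors were at 1.08% and all protein-coding genes at 0.411%. The order of olfactory receptors and all genes thus turned with the rule. Of 39 Hox genes, the classic Polycomb targets, 31 had at least 50% of their length in the other KO regions and 1, Hoxa4, in a KO-only region. By the same rule, 6937 of all 21631 protein-coding genes were in the other KO regions and 50 in KO-only regions. By any overlap KO-only regions touched 2 Hox genes, Hoxa3 and Hoxa4. Counts of 1 and 2 allow no reading against all genes. None of 13 genes of the Polycomb machinery was touched by a KO-only region, a list too short to read against the 2.53% of all genes.

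Where 50% or more of a gene had to lie in KO-only regions, 50 protein-coding genes were left (953 when KO regions with under 50% of their length covered by WT regions were counted, and 19 when a signal of at least 3 was asked), beside 95 pseudogenes, 29 lncRNAs and 16 variable segments of antigen receptors. With the 65 genes that begin in a region these made 89 protein-coding genes. Of these, 39 had at least 1 FPKM in some table, the least that was counted as measured. Of the genes that begin in a KO-only region and were in the tables, 50% reached that level in the numbered pair, and 53.7% did so in the unnumbered pair. Genes that begin in the other KO regions were measured less often, 17.2% of them in the numbered and 21.4% in the unnumbered pair, and all genes with a promoter reached 54.8% in the numbered and 57.5% in the unnumbered pair.

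The KO-only regions at the start of active genes differed from the rest in the marks around them. Of the 31 KO-only regions with the start of a gene of at least 1 FPKM in any table, 1 touched a PML region, 5 touched H3K9me3 in KO and 5 touched it in WT, 16.1% (7.09 to 32.6) for each genotype. Of the 2659 with no protein-coding start, 30.6% touched PML, 21.7% H3K9me3 in KO and 74.3% (72.6 to 75.9) H3K9me3 in WT. The 32 with the start of other genes were nearer to those with no start, with 37.5% in PML and 75% (57.9 to 86.7) with WT H3K9me3. H3.3-Flag touched 14 of the 31 in KO and 22 in WT, 71.0% (53.4 to 83.9), against 4.89% in KO and 4.36% in WT of the regions with no start. The median length was 7 kb in both, and the median signal 7.80 at active starts and 4.73 without a start. These shares were not computed for active starts outside KO-only regions, so they cannot be called particular to KO-only regions.

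**Figure D4:**
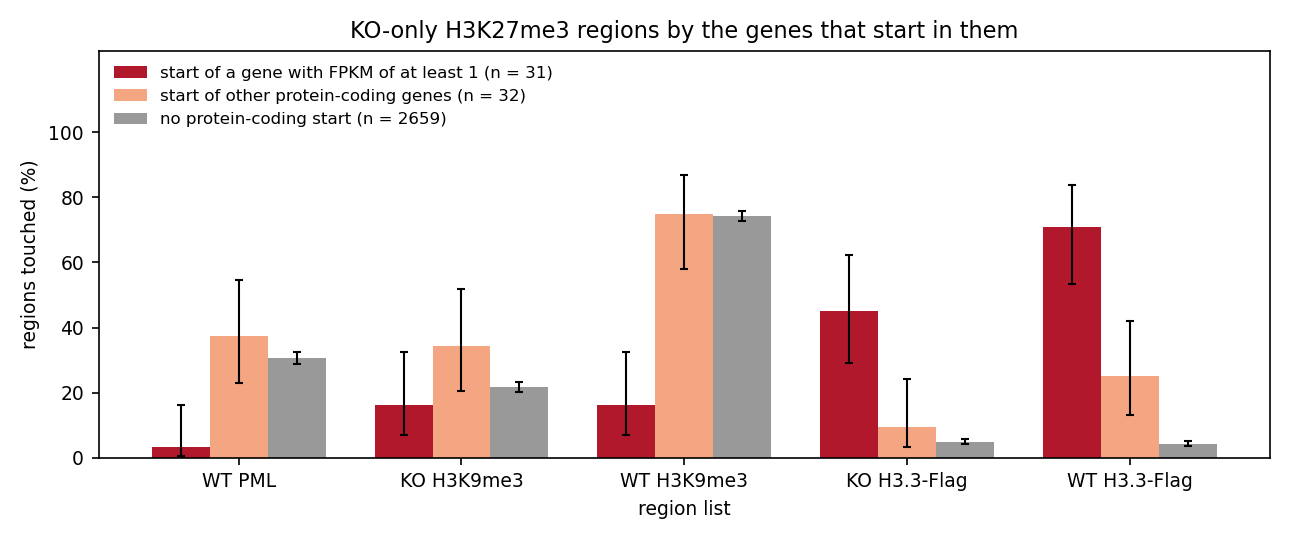
Share of KO-only regions touched by WT PML, by H3K9me3 and by H3.3-Flag of each genotype, in percent with 95% Wilson intervals, for regions with the start of a gene of at least 1 FPKM, of other protein-coding genes, and of none. Regions at active starts stand apart in WT H3K9me3 at 16.1% and in WT H3.3-Flag at 71.0%.

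RNA of these genes went no common way. RNA differences are KO minus WT of log2(FPKM + 1), and a difference of at least 1, which is 2-fold on that scale, is a description because each pair has 1 value per genotype. In the numbered pair 14 of the 50 genes with 50% of their length in KO-only regions were measured, with a median difference of 0.29, against 0.06 for all 11055 genes measured. Of the 14, the 2-fold mark was passed upward in KO by 2 and downward by 2, where 6.5% of all measured genes were higher and 15.7% lower. In the unnumbered pair 15 were measured, with a median of -0.25, against 0.01 for all 11687 genes, and 2 passed it upward and 0 downward, where 1.74% were higher and 3.83% lower. Counts this small allow no reading against the background.

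Signals and factors came first by role. Htr1b, a serotonin receptor, had 4.85 FPKM in KO and 2.11 FPKM in WT in the numbered pair, and 22.4 FPKM in KO and 9.44 FPKM in WT in the unnumbered pair. Its differences of 0.91 and 1.16 made it higher in KO in both. Alkal1, a ligand of the receptor kinase ALK, had 48.2 FPKM in KO and 30.0 FPKM in WT in the numbered pair, and 9.38 FPKM in KO and 6.43 FPKM in WT in the unnumbered pair, so it too was higher in KO in both, by less than 2-fold. Sting1, the adaptor of cytosolic DNA sensing, had 8.29 FPKM in KO and 9.82 FPKM in WT in the numbered pair, and 7.40 FPKM in KO and 15.4 FPKM in WT in the unnumbered pair. Its region at chr18:35734001-35739000 was 5 kb long with a signal of 2.82 and touched neither PML nor H3K9me3.

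Hoxa4 and Foxc2, developmental transcription factors, had lower values in KO in each pair, Foxc2 by little in the unnumbered pair. Hoxa4 had 1.90 FPKM in KO and 7.43 FPKM in WT in the numbered pair, and 0.692 FPKM in KO and 1.90 FPKM in WT in the unnumbered pair, with differences of -1.54 and -0.78. It lay wholly in a 9 kb region at chr6:52188001-52197000 with a signal of 0.667. Foxc2, needed for vessels and mesenchyme, had 18.9 FPKM in KO and 41.4 FPKM in WT in the numbered pair, and 9.87 FPKM in KO and 10.7 FPKM in WT in the unnumbered pair, differences of -1.09 and -0.11. The regions of Hoxa4 and Foxc2 touched neither PML nor H3K9me3. Zfp608, a zinc finger gene with 71.3% of its length in a KO-only region, went no single way. It had 2.80 FPKM in KO and 1.86 FPKM in WT in the numbered pair, and 2.59 FPKM in KO and 5.28 FPKM in WT in the unnumbered pair.

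Medag, a gene of fat cell formation, had the largest difference among genes with 50% of their length in KO-only regions. It had 30.0 FPKM in KO and 2.24 FPKM in WT in the numbered pair, a difference of 3.26, but 23.4 FPKM in KO and 30.8 FPKM in WT in the unnumbered pair, -0.38. Its 39 kb region at chr5:149394001-149433000 had a signal of 1.85 and was covered by H3K9me3 to 100% in KO and 87.2% in WT. Rprm, an inhibitor of the cell cycle, had 4.00 FPKM in KO and was listed at 0 in WT in the numbered pair, and had 3.06 FPKM in KO and 3.85 FPKM in WT in the unnumbered pair. Fhl5, a LIM-domain coactivator, was listed at 0 in KO and had 0.264 FPKM in WT in the numbered pair, against 9.95 FPKM in KO and 3.86 FPKM in WT in the unnumbered pair.

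Genes in daily use were among those named for a high mean FPKM, so their high levels follow from that choice. Eif5, a translation initiation factor, had 121 FPKM in KO and 79.3 FPKM in WT in the numbered pair, and 64.2 FPKM in KO and 61.2 FPKM in WT in the unnumbered pair, while 91% of it lay in a region of signal 1.09. Rrs1, in a region of signal 59.5, had 45.7 FPKM in KO and 40.6 FPKM in WT in the numbered pair, and 10.6 FPKM in KO and 8.38 FPKM in WT in the unnumbered pair. Ctdsp1, a phosphatase that acts on RNA polymerase II, had 29.8 FPKM in KO and 55.4 FPKM in WT in the numbered pair, and 19.8 FPKM in KO and 21.9 FPKM in WT in the unnumbered pair. All 3 transcripts were present in KO beside a KO-only H3K27me3 region.

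Genes that begin in a KO-only region without lying mostly inside it were named after their values had been seen. Of all genes that begin in a region, Medag and Htr1b included, 27 had at least 1 FPKM in the numbered pair, with 6 past 2-fold upward in KO and 3 downward. Over all genes with a promoter in RefSeq 5.84% were higher and 15.7% lower there. In the unnumbered pair 29 did, with 1 upward and 2 downward, where 1.37% of all genes were higher and 3.403% lower. Itga11, a collagen receptor of fibroblasts, had 4.96 FPKM in KO and 64.0 FPKM in WT in the numbered pair but 104 FPKM in KO and 108 FPKM in WT in the unnumbered pair. Mapk12, a p38 kinase, had 4.54 FPKM in KO and 19.8 FPKM in WT in the numbered pair, and 3.31 FPKM in KO and 4.46 FPKM in WT in the unnumbered pair. Both were lower in KO by over 2-fold in the numbered pair and within 2-fold of WT in the unnumbered pair. Sema7a, a membrane-bound semaphorin, had 25.9 FPKM in KO and 5.51 FPKM in WT in the numbered pair, and 4.71 FPKM in KO and 1.99 FPKM in WT in the unnumbered pair, differences of 2.04 and 0.94. Epha3, an ephrin receptor, had 1.23 FPKM in KO and 3.08 FPKM in WT in the numbered pair, and 14.2 FPKM in KO and 46.6 FPKM in WT in the unnumbered pair, differences of -0.87 and -1.64. Sema7a was higher and Epha3 lower in KO in both pairs. Of the CG-rich promoters printed above, that of Medag belongs to a gene whose direction turned between the pairs.

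Of the 39 measured genes 34 were measured in both pairs, and 0 of them were 2-fold different in the same direction in both, where 1.05% of 10671 genes were, so the 0 is near the background. At least 2-fold in either pair were 15 of the 39, where 23.9% of 12071 genes were. The genes of the Polycomb machinery had a median difference of 0.29 in the numbered and of 0.03 in the unnumbered tables, and Phf19, a subunit that binds chromatin, was the single one past 2-fold, with 7.003 FPKM in KO and 0.945 FPKM in WT in the numbered pair. Ezh2 had 38.3 FPKM in KO and 31.2 FPKM in WT in the numbered pair, and 7.599 FPKM in KO and 9.82 FPKM in WT in the unnumbered pair.

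**Figure D5:**
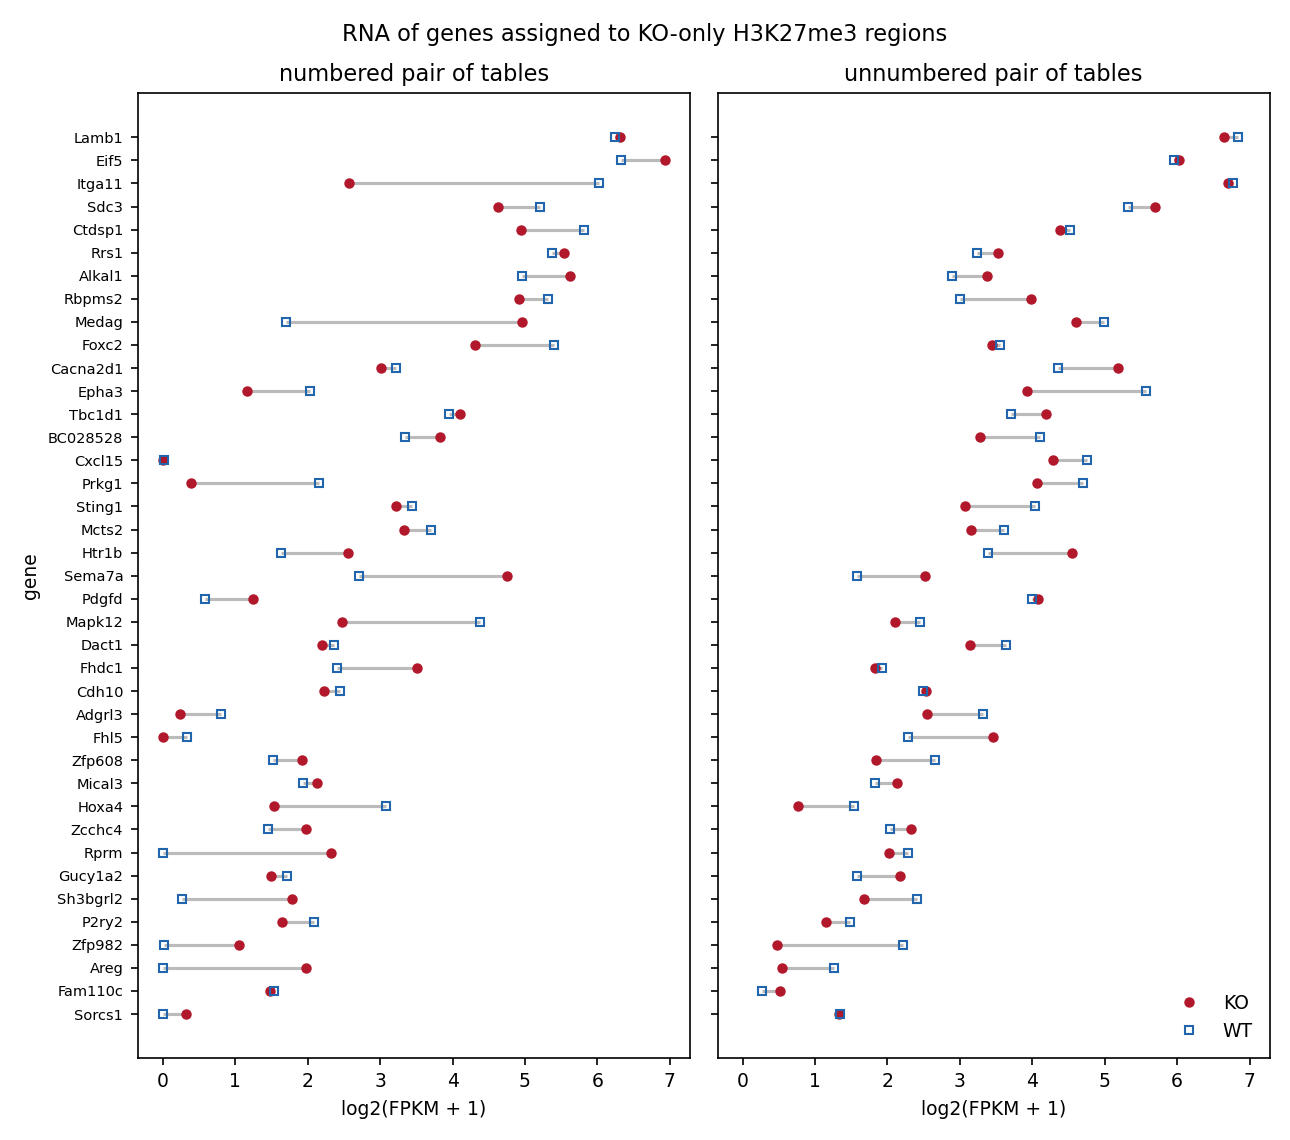
RNA as log2(FPKM + 1) in KO (filled circles) and WT (open squares) for the 39 measured genes with at least 50% of their length or their start in KO-only regions, in the numbered pair (left) and the unnumbered pair (right), in order of mean FPKM. Medag and Itga11 are far apart in the numbered pair, by 3.26 and -3.45, and close in the unnumbered pair.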

How the data were processed

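Regions were taken from the lists deposited by the authors, made from reads aligned to mm10. The submitters' processing notes name Bowtie 1.0.0 and TopHat2 2.0.8b, and also Cuffdiff 2.2.1 and Cufflinks 2.2.1. Which program called the regions is not given in the sources used here. For H3K27me3, H3K9me3 and H3.3 the deposited lists hold a signal and a score per region, and for H3 and PML a score alone. RNA tables deposited by the authors hold FPKM. Depth is unknown for all libraries, since no file used here gives read totals, and limits of detection were not computed. Overlaps of at least 1 bp, covered lengths and gaps were computed in Python 3.11.15 (pandas 2.3.3, numpy 2.4.6) by functions tested on simulated data. The analysed genome left out the first 3 Mb of each chromosome and Y. RNA lines that list several genes (271 or 267 in a table), and names that occur again, were not used, and 99.4% of the names matched RefSeq. Named regions were the 10 longest, the 10 of highest signal and those at the edge of the rule. Named genes had at least 50% of their length in KO-only regions and either the 5 largest differences in a direction and pair or the 10 highest mean FPKM; genes that begin in a region were added after their values were seen. With 1 value per genotype no p-value was computed. The regions and gene lists were chosen with earlier results of these data known. Names of older annotations were matched by synonym, such as Fam150a for Alkal1. Reads of near-identical copies may be split, which leaves Zfp982, Mcts2 and olfactory receptors uncertain.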

Additional observations from a re-analysis of the deposited data

Results flagged for a closer look

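RNA differences of 3 genes that begin in KO-only regions were at least 1 in size in either the numbered or the unnumbered pair and at least 0.5 the other way in the other pair. More genes differed in sign by less than that, Medag among them with 3.26 in the numbered and -0.38 in the unnumbered pair. The unnumbered minus numbered difference was -2.78 for Zfp982, -2.69 for Areg, a ligand of the EGF receptor, and -2.26 for Sh3bgrl2. Zfp982 had 1.07 FPKM in KO and 0.00662 FPKM in WT in the numbered pair, against 0.389 FPKM in KO and 3.64 FPKM in WT in the unnumbered pair. Areg had 2.93 FPKM in KO and was listed at 0 in WT in the numbered pair, against 0.453 FPKM in KO and 1.39 FPKM in WT in the unnumbered pair. Sh3bgrl2 had 2.45 FPKM in KO and 0.201 FPKM in WT in the numbered pair, against 2.195 FPKM in KO and 4.32 FPKM in WT in the unnumbered pair. The differences between the pairs were not tested.

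The X chromosome, which holds no KO-only region, was covered by KO H3K27me3 regions to 98.9%, against 77.4% for WT regions. Xist, the RNA that coats the inactive X, had 0.0517 FPKM in KO and 19.5 FPKM in WT in the numbered pair, and 8.25 FPKM in KO and 5.89 FPKM in WT in the unnumbered pair.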

How the results depend on the processing

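Of 67 values recomputed under alternatives, 38 stayed within 1.5 times the count, or within a 95% interval around the value reported, and 29 did not. For shares of length that interval treated the share as a share of 2722 separate regions. It is a yardstick there and not the error of a covered length. Counting KO regions with under 50% of their length covered by WT regions gave a median length of 8 kb, a median signal of 3.92, 953 genes, 59.0% of the length in PML regions and 53.4% with H3K9me3 in KO. A KO signal of at least 3 gave 1769 regions, a median of 6 kb, a signal of 7.43, 19 genes, 29.3% in PML and H3K9me3 over 23.5% in KO and 73.9% in WT. Chromosomes 10 to 19 alone gave 555 regions, a signal of 3.63, 14 genes, 39.7% in PML, H3K9me3 over 32.6% in KO and 50.3% in WT, and a median RNA difference of -0.81 in the unnumbered pair. Leaving out WT regions of a signal under 3 gave 24.1% in PML, and 30.2% of regions had at least 50% of their length there. Without regions that touch H3 regions, H3K9me3 in KO covered 23.0%. Any overlap gave 548 genes. A H3K9me3 signal of at least 3 gave 32.3% in WT. Alternatives chosen after seeing the data were a H3K9me3 signal of at least 1 (56.7% in WT), of at least 5 (21.5% in KO, 20.1% in WT) and the strongest 300 Mb (15.1% in KO, 31.0% in WT). The cause of these shifts was not tested. The median RNA difference of the numbered pair was -0.06 with KO regions under 50% covered and with a signal of at least 3, so its sign is not settled. No paired analysis was possible because the numbered RNA replicates are pooled into 1 table per genotype and each ChIP target has 1 library. No replicate could be left out for the same reason.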
